A study of Mus musculus with 2 samples.

Results

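The genes described here, 10 in number, belong to the cytoskeleton and were read in microglia sorted from the brains of sham-operated mice. They were Actb, Tmsb4x, Pfn1, Cfl1, Arpc2, Was, Coro1a, Lcp1 and Aif1, together with the intermediate filament gene Vim. The choice was by symbol, as actin, actin binders, the gene of IBA1 and 1 filament protein of another class, and all 10 were found among the 53801 genes listed in each library. Each of the 2 libraries came from 1 mouse of the genotype Cx3cr1(CreER/wt), which carries a tamoxifen-inducible Cre under the promoter of the microglial receptor gene Cx3cr1 on a C57BL/6 background. The CreER insertion takes the place of 1 Cx3cr1 copy, and such mice served the study as wild-type controls. Tamoxifen was given to both mice at 75 mg/kg a day over 4 days, and sham surgery followed 14 days after the first injection (the treatment label itself reads none). The left hemisphere was taken 3 days after surgery, and cells in the CD11c-Ly6G-CD11b+CD45low gate were collected. The series text gives male mice of 8 to 10 weeks, whereas the study's methods give an older range and both sexes. The libraries of mice with stroke were not analysed here, so the only comparison is between 2 mice of 1 group, and no test of a condition was possible.

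Actin is found as single subunits (G-actin) and as filaments (F-actin), and cells move by shifting actin between these forms. Thymosin β4, encoded by Tmsb4x, holds single subunits in reserve, and profilin, encoded by Pfn1, delivers them to growing filament ends. WASP, encoded by Was and made in cells of the haematopoietic lineage, switches on the Arp2/3 complex. This complex starts a new branch on an existing filament, and Arpc2 encodes a core subunit of it. Coronin 1A (Coro1a) binds filaments in leukocytes, L-plastin (Lcp1) bundles them, and cofilin (Cfl1) cuts them. IBA1, the product of Aif1, is a calcium-binding protein that bundles F-actin, and its antibody is the usual stain for microglia. Vimentin (Vim) forms filaments of its own and does not bind actin monomers. Microglia use this machinery to extend processes and to engulf particles.

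Whether reads of near-identical relatives could be told apart was read first from the annotated sequences, since it decides what a level means. Non-muscle actin has 2 genes, Actb and Actg1, whose proteins are almost the same. Their coding sequences have 1128 bases each and differ at 128 of them, and the longest identical run is 62 bases, shorter than a 75-base read. The first 90 coding bases are shown for each because the reads that separate the 2 genes rest on differences of this kind. Capitals mark the bases that differ between them. The stretch of Actb lies on the minus strand at chr5:142905597-142905686 and that of Actg1 on the minus strand at chr11:120348002-120348091 of GRCm38.
Actb: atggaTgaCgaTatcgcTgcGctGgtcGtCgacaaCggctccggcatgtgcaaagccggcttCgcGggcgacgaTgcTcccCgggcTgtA
Actg1: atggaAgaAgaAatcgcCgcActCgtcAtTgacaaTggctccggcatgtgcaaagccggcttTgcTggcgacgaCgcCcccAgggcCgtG
Of these 90 bases, 16 differ.

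The thymosins are short enough to be shown whole. Tmsb4x and its relative Tmsb10 each encode 44 residues in 135 coding bases, stop codon included, and the 2 sequences are set out because the smallest protein of the group has the highest transcript level per length. Capitals again mark differing bases, 40 of 135. Both lie on minus strands and span an intron, Tmsb4x at chrX:167207501-167208036 and Tmsb10 at chr6:72957618-72958012.
Tmsb4x: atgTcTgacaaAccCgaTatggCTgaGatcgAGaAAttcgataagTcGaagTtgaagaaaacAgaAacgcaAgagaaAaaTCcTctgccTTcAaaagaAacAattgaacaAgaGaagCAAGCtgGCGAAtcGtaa
Tmsb10: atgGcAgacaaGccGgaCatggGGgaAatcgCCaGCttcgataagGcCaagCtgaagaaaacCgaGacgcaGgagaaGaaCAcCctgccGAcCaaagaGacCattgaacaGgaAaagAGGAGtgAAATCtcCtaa
Their longest identical run is 10 bases.

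Every 75-base window of each gene's longest GENCODE M21 transcript was then searched for, on both strands, in the transcripts of all other genes. No window was found elsewhere for Tmsb4x, Pfn1, Arpc2, Coro1a, Aif1 or Vim. For Actb it was 48 of 1846 windows (2.60%), and for Was 13 of 2040 (0.637%). Cfl1 had 377 of 2280 windows elsewhere (16.5%), most of them in Snx32, a gene on the opposite strand whose exons overlap its own over 468 bases. For Lcp1 the share was 8.47%, from Gm15628, a long non-coding RNA with no counts, and from 2 processed pseudogenes. The pseudogenes that share windows with Cfl1 and Lcp1 held at most 0.169% of the count of their parent gene. Actg1 differed from the 10 genes, with 54.5% of its windows in other genes, among them 9 pseudogenes, of which those in the count files together held 374 counts in library 1 and 969 in library 2. The level of Actg1 is therefore uncertain, whereas that of Actb rests almost wholly on windows of its own. The search covered exact matches in annotated transcripts only, and whether the counting used the strand of reads is not given in the sources used here.

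Library 1 held 23381026 counts on genes and library 2 held 41142609, and levels are given as counts scaled to a total of 1000000 (CPM). Both libraries had the defining microglia genes, with 37256 and 42550 CPM summed over 10 markers, of which Tmem119 had 7057 and 6229 CPM. Immature neutrophil genes, 10 in number and all more than 2-fold higher in library 2, summed to 1754 and 32674 CPM. The 9 mature neutrophil genes, 7 of them more than 2-fold higher, summed to 3425 and 30013 CPM. Of all genes with at least 10 counts in each library, 5.74% were more than 2-fold higher. The mature neutrophil gene Csf3r was lower in library 2, with 517 and 354 CPM (log2 ratio −0.55). None of either list was at 0, although the gate excluded Ly6G-positive cells. The libraries thus stood apart in these markers, so every level is given for each. In such bulk samples, fewer cells of a type and less RNA per cell cannot be told apart. Mitochondrially encoded genes took 0.766% and 0.391% of the counts. Among the 13445 genes that reached 10 counts in each library, the median log2 ratio of library 2 to library 1 was −0.26 (−0.03 with TMM scaling, which moved every ratio up by 0.23), so ratios are read against that median.

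Together the 10 genes took 1.58% of all counts in library 1 (95% Wilson interval 1.57 to 1.58%) and 2.16% in library 2 (2.15 to 2.16%), or 1.87% ± 0.411 (SD, n = 2). Intervals cover counting error only, since amplified reads are not independent molecules, and the libraries differed by far more. Actb and Tmsb4x made up 63.7% of these counts in library 1 and 69.2% in library 2. Without them the share was 0.573% and 0.665%.

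Per kilobase of the longest transcript, the scale on which different genes can be compared, Tmsb4x had the highest level of the group, with 5033 CPM per kb in library 1 and 9776 in library 2. Actb followed with 2961 and 3377 CPM per kb, and its 2 values lay below both values of Tmsb4x. Among all 53801 genes ranked by CPM, Tmsb4x held rank 19 in library 1 and rank 10 in library 2, and Actb held rank 12 and rank 17. Next came Coro1a with a mean of 827 CPM per kb, Pfn1 with 719 and Aif1 with 671. Coro1a was above the other 2 within each library, but its range overlapped that of Pfn1, and Pfn1 was below Aif1 in library 1 and above it in library 2. Arpc2, Cfl1 and Lcp1 followed with means of 403, 378 and 292 CPM per kb, and each kept its place in both libraries, but this rests on the choice of length. Cfl1 stood above Arpc2 with the union of exons and with the median coding transcript, and with the latter Lcp1 went from 292 to 1654 CPM per kb and to position 5. Vim and Was were far lower, at 31.3 and 17.8 CPM per kb, and exchanged places between the libraries. The mean level per kb of Tmsb4x was 416 times that of Was.

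**Figure D1:**
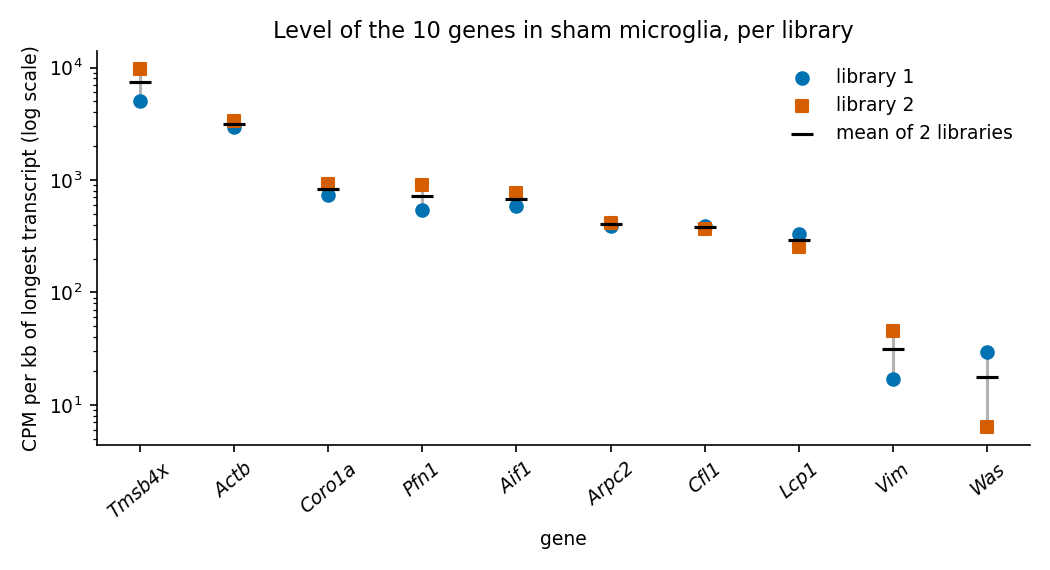
Level of the 10 genes in CPM per kb of the longest transcript, on a log axis, with 1 point for each library (circle, library 1; square, library 2) and a dash at their mean. The points of 8 genes lie within 2-fold of each other, while those of Vim and Was are farther apart and in opposite order.

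Actb (chr5:142903115-142906754 of GRCm38, minus strand), the gene of β-actin, had 132943 counts in library 1 and 266792 in library 2. On the CPM scale this was 5686 and 6485, or 6085 ± 565 CPM (SD, n = 2), a log2 ratio of 0.19. By CPM the 2 libraries were thus close to each other for the actin gene itself. The log2 ratio was 0.42 with TMM scaling and 0.46 with DESeq2 size factors. Set against genes of like length and GC content it was 0.01. Within each library Actb took 91.9% (95% Wilson interval 91.8 to 92.1%) and 91.5% (91.4 to 91.6%) of the counts on Actb and Actg1 together, and per kb 92.1% and 91.6%. These shares are uncertain beyond the intervals, because 54.5% of the windows of Actg1 are found in other genes. The actin isoforms of muscle were at or near 0, since Actg2 had no counts, and Acta1 and Actc1 had 0 counts in library 1 and 1 in library 2, where 0 counts allow up to 0.128 CPM in library 1 and 0.0729 CPM in library 2. Acta2, which smooth muscle cells express, had 21 and 316 counts, a log2 ratio of 3.10, and the other 5 mural cell markers had between 0 and 21 counts in each library, among them Cspg4 with 21 and 3 and Pdgfrb with 9 and 18.

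Tmsb4x (chrX:167207093-167209315, minus strand), whose product holds single actin subunits, measured 4349 CPM in the first library and 8446 CPM in the second, or 6398 ± 2897 CPM (SD, n = 2). Its log2 ratio of 0.96 was just inside 2-fold and went past it with TMM scaling (1.19), with DESeq2 size factors (1.23) and with totals that leave out the neutrophil genes (1.04). Tmsb10 had 24.3 and 18.1 CPM, a level that is uncertain because 32.8% of its windows are found in other genes, and by these counts Tmsb4x took 99.3% and 99.7% of the level per kb of the pair. Pfn1 (chr11:70651850-70654644, minus strand), the profilin gene, had 1081 and 1792 CPM in libraries 1 and 2, or 1437 ± 503 CPM (SD, n = 2; log2 ratio 0.73). Tmsb4x and Pfn1 were thus both higher in library 2, by more than Actb, while 3 of the 7 counted genes of the monomer binder list, Cap1, Twf1 and Tmsb10, were lower (log2 ratios −2.17, −0.88 and −0.42). Pfn2 had 91 and 268 counts, and Pfn1 took 99.7% of the level per kb of the pair in both libraries.

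Cfl1 (chr19:5490455-5495201, plus strand), the cofilin gene, had 916 and 863 CPM in libraries 1 and 2, or 889.5 ± 37.6 CPM (SD, n = 2; log2 ratio −0.09). The sign of this small difference turned with TMM scaling, to 0.14. Its relative Cfl2 had 22.8 and 26.1 CPM, so Cfl1 took 98.1% and 97.6% of the level per kb of the 2 cofilins. Dstn, the gene of destrin, which also takes filaments apart, was higher in library 2, with 117 and 312 CPM (log2 ratio 1.42). When Dstn was counted with the cofilins, the share of Cfl1 per kb was 85.0% in library 1 and 68.1% in library 2.

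Arpc2 (chr1:74236084-74268209, plus strand) had 565 and 593 CPM in libraries 1 and 2, or 579 ± 20.1 CPM (SD, n = 2; log2 ratio 0.07, or 0.30 with TMM scaling and −0.04 when set against genes of like length and GC content). Per kb of the longest transcript it had the highest level of 7 Arp2/3 subunits in both libraries. For a subunit with 2 genes the more abundant form was counted. It had 393 CPM per kb against a median of 170.2 in library 1, and 412 against 324 in library 2. This rank rests on that choice of length, and no other length was run for the subunits. In CPM, Arpc1b was above Arpc2, with 734 and 1046, and its longest transcript has 3105 bases against 1439. The other subunits did not keep step with Arpc2. Actr2, which encodes the actin-like ARP2, was the lowest of the 7, with 79.8 and 25.6 CPM per kb, and Arpc5 had 139 and 324 CPM per kb. The highest subunit was 4.92 times the lowest in library 1 and 16.1 times in library 2.

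Was (chrX:8081453-8090498, minus strand) went the other way from most of the group, with 1446 counts in library 1 and 555 in the deeper library 2. In CPM these were 61.8 and 13.5, or 37.7 ± 34.2 CPM (SD, n = 2), which is 4.58-fold lower in library 2 (log2 ratio −2.20, 95% counting interval −2.34 to −2.06). Wasl, which encodes the related N-WASP found in most cell types, had 544 and 688 counts, so the share of Was in the level per kb of the pair was 84.5% in library 1 and 62.4% in library 2. The 2 libraries thus differed far more in this activator of branching than in the complex subunit Arpc2.

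Coro1a (chr7:126699773-126707787, minus strand) had 1279.9 and 1609 CPM in libraries 1 and 2, or 1444 ± 232 CPM (SD, n = 2; log2 ratio 0.33). Among Coro1a, Coro1b and Coro1c it took 77.7% and 79.4% of the level per kb, a share that moved little. Lcp1 (chr14:75131101-75230842, plus strand) had 1266 and 976 CPM in libraries 1 and 2, or 1121 ± 205 CPM (SD, n = 2; log2 ratio −0.38). Its epithelial relative Pls1 had 1 and 6 counts, and Pls3 had 410 and 919, so that Lcp1 held 98.4% and 97.3% of the plastin level per kb. Coro1a and Lcp1 are also expressed in neutrophils, whose markers differed between the libraries as given above, and the part of those cells in the levels of the 10 genes was not tested.

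Aif1 (chr17:35170991-35176068, minus strand), the gene of IBA1, had 11897 counts in library 1 and 27373 in library 2. This was 509 and 665 CPM, or 587 ± 111 CPM (SD, n = 2; log2 ratio 0.39, 95% counting interval 0.36 to 0.42). Its level per kb was higher than that of 99.4% of the 13439 counted genes with a transcript length. The relative Aif1l, which encodes an IBA1-like protein of other tissues, had 4 and 3 counts. Aif1 thus accounted for nearly all counts of its pair in both mice, and its difference between them was smaller than that of Tmsb4x or Pfn1.

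Vim (chr2:13573927-13582826, plus strand) had 1173 counts in library 1 and 5474 in library 2, that is 50.2 and 133 CPM, or 91.6 ± 58.6 CPM (SD, n = 2). It was 2.65-fold higher in library 2 (log2 ratio 1.41, 95% counting interval 1.32 to 1.50), the largest positive ratio of the 10 genes. Vimentin is abundant in several other cell types, and their markers were read beside it. Summed over 6 genes, astrocyte markers had 14.8 and 22.3 CPM and endothelial markers 23.2 and 17.2 CPM, with none of either list at 0 in a library. The 6 mural cell markers had 2.27 and 8.31 CPM, of which Acta2 alone had 0.898 and 7.68 CPM, with 2 at 0 counts in library 1 and 1 in library 2. Fibroblast markers were nearly absent, since 4 of 5 were at 0 in library 1 and 2 of 5 in library 2. Monocyte markers, 5 genes with none at 0, had 276 and 611 CPM. The part of these cells, and of neutrophils, in the level of Vim was not tested.

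Past 2-fold between the libraries were 2 of the 10 genes, Vim higher and Was lower in library 2, against 31.7% of all 13445 genes counted. By direction the background was 5.74% higher and 25.9% lower in library 2. Genes that reached 1000 counts in each library, which include all of the group except Was, were past 2-fold in 19.3% of cases, 2.59% higher and 16.7% lower. With TMM scaling 3 of the 10 genes were past 2-fold, Tmsb4x being added, against 28.5% of all genes. With DESeq2 size factors there were 4, Tmsb4x and Pfn1 being added, against 28.2%. Counts this small do not set the 10 genes apart from the background. Their log2 ratio was above 0 for 7 genes and below 0 for 3, with a median of 0.26 beside −0.26 for all genes. The median size of the difference, whatever its sign, was 0.38 for the group, 0.60 for all genes and 0.43 for genes with at least 1000 counts.

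**Figure D2:**
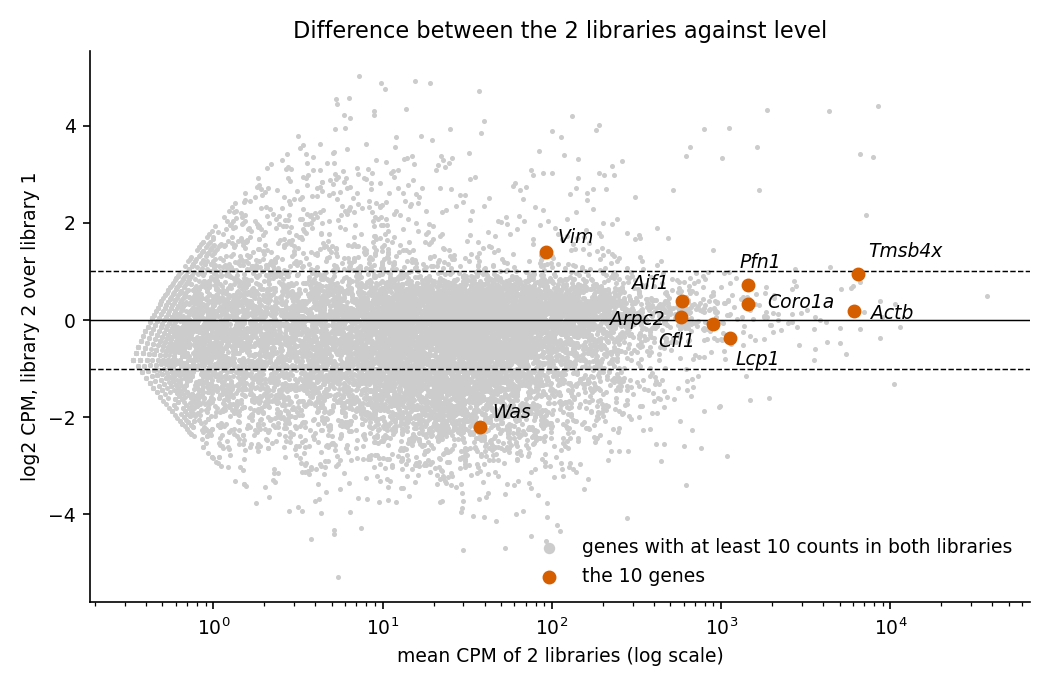
Log2 ratio of CPM in library 2 to library 1 against the mean CPM of the libraries (log axis) for the genes that reached 10 counts in each, with the 10 genes in orange. Dashed lines mark 2-fold. Vim at 1.41 lies above the upper line and Was at −2.20 below the lower one, and Tmsb4x at 0.96 is just inside.

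Transcript length moved with the difference between the libraries. Over all 13439 counted genes with a transcript length, the median log2 ratio was between −0.05 and 0.17 in each of the 5 shorter of 10 length bins, where 9 of the 10 genes lie, and went down from there to −1.05 in the longest bin, where 52.6% of genes were more than 2-fold lower in library 2. Described as a rank correlation across genes, which share the same 2 libraries and are not replicates, Spearman's rho of ratio and length was −0.38. The 10 genes had a median length of 1959 bases against 3106 for all, and only Lcp1, with 3841 bases, lay in one of the 5 longer bins. When each gene's ratio was set against the median of genes of like length and GC content, Lcp1 moved from −0.38 to 0.09, which leaves its difference from library to library close to that of genes of its length and GC content. Was and Vim kept theirs, at −2.25 and 1.36, and were again the 2 genes past 2-fold, against 22.4% of all genes (9.70% higher and 12.7% lower). Their differences were thus of about the same size beside such genes.

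**Figure D3:**
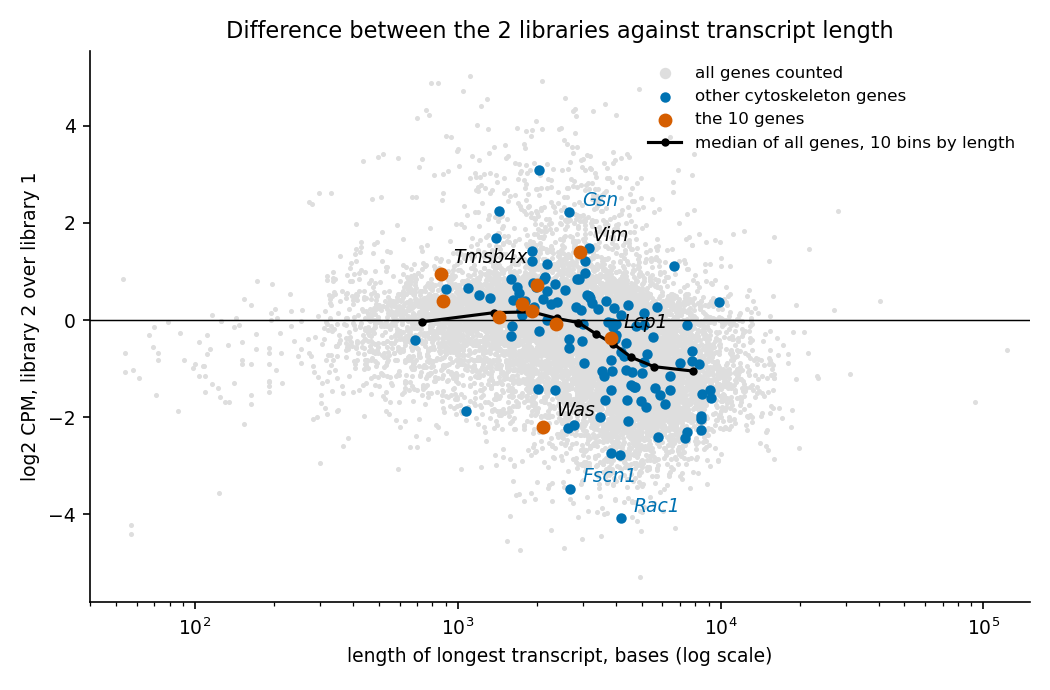
Log2 ratio of CPM in library 2 to library 1 against the length of the longest transcript (log axis). Grey points are all counted genes, blue points other cytoskeleton genes and orange points the 10 genes, and the black line joins the medians of all genes in 10 bins by length, which end at −1.05. Was lies far below this line and Vim above it, and Lcp1 lies close to it.

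The rest of the pathway was read from 16 lists of cytoskeleton genes by role, 144 genes in all with the 10 included, of which 128 reached 10 counts in each library. More than 2-fold lower in library 2 were 40 of them, or 31.3%, and 11 were more than 2-fold higher, or 8.59%, beside 25.9% and 5.74% of all genes. With TMM scaling these were 33 lower and 18 higher, and over all genes 3485 lower and 772 higher became 2689 and 1138. The median log2 ratio of the 128 genes was −0.11. Length again moved with it, for among the 57 genes with transcripts under 3000 bases the median was 0.40 with 7 more than 2-fold lower, and among the 71 longer ones it was −0.88 with 33 lower. Over all genes the 6397 with short transcripts had a median of 0.06 with 12.4% lower, and the 7042 with long ones −0.67 with 38.2% lower. After the adjustment for length and GC content, 13 of the 40 lower genes stayed more than 2-fold lower, and 10 of the 11 higher genes stayed higher. With genes that newly passed 2-fold, the adjusted counts were 14 lower and 18 higher, beside 12.7% and 9.70% of all genes. Over all genes the adjustment took 3485 lower and 772 higher to 1705 and 1303. The balance thus moved toward higher genes in the lists and over all genes alike.

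In several lists most genes lay above 0. All 4 tropomyosin genes, whose products lie along actin filaments, were higher in library 2 within 2-fold, and Tpm3, the highest of them per kb, had 541 and 696 CPM. In the Arp2/3 list 8 of 10 genes had a positive ratio, Arpc5 past 2-fold (267 and 621 CPM). The exceptions were Actr2 (290 and 92.8 CPM, log2 ratio −1.64) and Actr3b, which had only 10 and 15 counts (log2 ratio −0.23). Among 9 genes that cap filament ends, Capg was 1.70 higher on the log2 scale, with 66.6 and 216 CPM, and Add1 was lower (156 and 61.5 CPM). The severing list was mixed, with 4 of 12 genes above 0 and a median log2 ratio of −0.11. In it 3 genes were more than 2-fold higher and 3 more than 2-fold lower, beside 5.74% and 25.9% of all genes. Gsn, which encodes gelsolin, had 48.6 and 228 CPM and a log2 ratio of 2.23. The lower genes were Ssh1 (−2.26, adjusted −0.88), Limk1 (−1.99, adjusted −0.84) and Ssh2 (−1.61, adjusted −0.60). Capg and Gsn, like Vim, were among the genes whose difference stayed past 2-fold after the adjustment, at 1.56 and 2.57.

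The activators upstream of filaments lay mostly below 0. In the list of nucleation promoters, which holds Was, 8 of 14 counted genes were more than 2-fold lower in library 2 and 1 was higher, with a median log2 ratio of −1.11. The median transcript of this list has 4662.5 bases, and in the length bin that holds this value 40.9% of all genes were more than 2-fold lower. Nckap1l, a subunit of the WAVE complex in cells of the haematopoietic lineage, had 607 and 190.1 CPM, and Abi2, of the same complex, 35.0 and 6.59 CPM. Brk1, the smallest subunit, had 235 and 371 CPM. After the adjustment the median of this list was −0.10, and Was (−2.25), Abi2 (−1.89) and Hcls1 (−1.48) stood more than 2-fold below 0, while Cyfip2 (2.49) and Abi3 (1.14) stood above it. Of 7 counted formin genes, which encode proteins that start unbranched filaments, 4 were more than 2-fold lower, beside 48.0% of all genes in the bin of their median length of 5508 bases. The lowest was Fmnl1, with 108 and 16.2 CPM (log2 ratio −2.74, adjusted −1.30).

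The largest difference among the counted genes of the 16 lists was that of Rac1, the GTPase that acts on the WAVE complex, with 12270 counts in library 1 and 1278 in library 2, or 525 and 31.1 CPM. Its log2 ratio was −4.08, and −3.61 after the adjustment. In its list 6 of 14 genes were more than 2-fold lower, among them Rac3 (log2 ratio −1.87, adjusted −1.88) and Rhob (−1.44, adjusted −1.32), and none was more than 2-fold higher. Cdc42, which acts on WASP, had 1110.5 and 1499 CPM (log2 ratio 0.43). Rac2, the form of the haematopoietic lineage, had 480.5 and 934 CPM (log2 ratio 0.96). Fscn1, which encodes the bundling protein fascin, came next, with 285 and 25.7 CPM (log2 ratio −3.47, adjusted −2.86). Cap1, whose product binds actin monomers, had 150 and 33.3 CPM (log2 ratio −2.17, adjusted −2.20). With the adjustment Tln1, of the linker list, went from −2.05 to −0.37 and Flna, a crosslinker, from −1.52 to −0.10, while the linkers Msn (−1.44 to −0.97) and Ezr (1.48 to 1.83) moved less. Serum response factor (Srf), which controls many actin genes, had 394 and 149 counts (log2 ratio −2.22, adjusted −1.64), and its cofactor Mrtfa had 1223 and 682 counts (log2 ratio −1.66, adjusted 0.00).

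**Figure D4:**
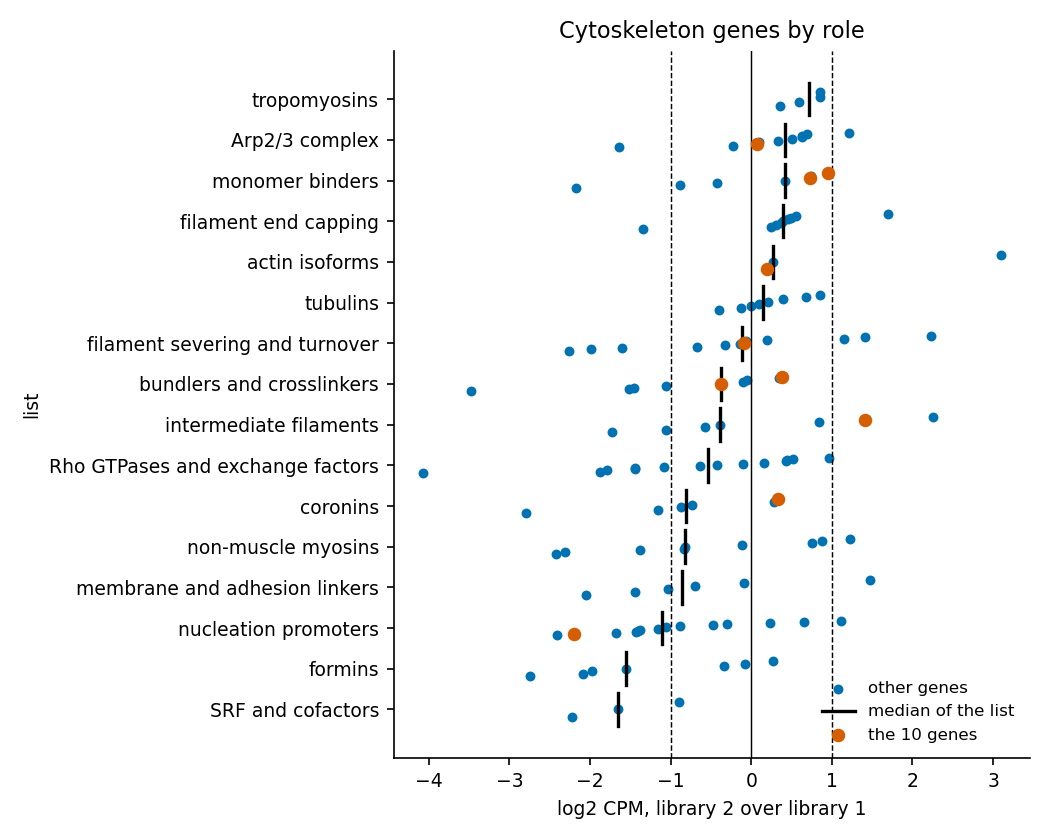
Log2 ratio of CPM in library 2 to library 1 for each counted gene of the 16 lists, with 1 row a list, the 10 genes in orange and a black bar at the list's median. Dashed lines mark 2-fold. The lists run from a median of −1.66 for Srf and its cofactors to 0.72 for the tropomyosins, and Rac1 at −4.08 lies farthest to the left.

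Promoter windows of RefSeq (GRCm38.p6, 250 bases before to 50 after the annotated start) were given for 9 of the 10 genes, all but Actb. None of the 9 held a CArG box, the motif of serum response factor (searched on both strands), which 1.63% of all 32851 windows hold. The letters GAGGAA, which resemble the core bound by the myeloid factor PU.1, or their reverse complement were in the windows of 3 genes, Aif1, Was and Vim, and in 28.3% of all windows. A match of letters is a description and not a binding site.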

How the data were processed

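Per the labels and the study's methods, cDNA was made from RNA of sorted cells with the SMART-Seq HT Kit, Nextera XT libraries were sequenced as paired 75-base reads, and HISAT2 (GRCm38) and HTSeq gave counts per Ensembl gene. The deposited values are these raw counts, not normalized by the authors. Tool versions and annotation release are not given in the sources used here. Symbols came from GENCODE M21, which named 53620 of 53801 genes and whose coordinates matched for all 10 genes. The 10 genes and the lists were chosen with earlier results of these data known.

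Levels were counts divided by the library total and scaled to 1000000 (CPM), as mean and SD of 2 mice. Ratios have counting intervals only. Genes needed at least 10 counts in both libraries, and 2-fold was the limit. Gene length and GC content were those of the longest transcript. The adjusted ratio subtracts the median of genes in the same of 10 bins of GC content and 10 of length (of GC content alone under 20 genes). It was run on simulated Poisson counts of 13039 genes for library 2 over library 1, with a trend in length and GC content built in. A shift of 2 was recovered as a median of 1.996 in 88 genes (1.701 unadjusted), and a shift of −2 as −2.002 in 95 (−2.143 unadjusted). This checks the arithmetic only, since the simulation held no further spread between mice and no difference in cell types. Alternatives were edgeR TMM, DESeq2 size factors, other totals, filters and lengths. From each list were named the gene with the highest level per kb and, with a mean of at least 10 CPM, the 3 largest differences past 2-fold, plus close relatives of the 10 genes. Other genes were named after their values were seen. Precision was set by 23381026 and 41142609 counts and by 2 mice. R 4.3.3, edgeR 4.0.16, DESeq2 1.42.0, Python 3.11.15, pandas 2.3.3, scipy 1.17.1 and Biopython 1.88 were used.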

Additional observations from a re-analysis of the deposited data

How the results depend on the processing

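No paired analysis was possible because both libraries belong to 1 group. The median log2 ratio of the 10 genes, 0.26, was 0.49 with TMM, 0.53 with DESeq2 size factors and 0.35 with totals that leave out the neutrophil genes, each a change of totals alone. More than 2-fold apart were 2 genes, and 4 with DESeq2 size factors (28.2% of all genes), with Tmsb4x (1.23) and Pfn1 (1.00) added. The background of 31.7% was 19.3% among genes with at least 1000 counts. The summed share of 1.87% was 1.58 to 2.16% with one library left out, which with 2 libraries always stays within 1 SD and says nothing about stability, and 0.619% without Actb and Tmsb4x. Of the wider lists 51 genes were past 2-fold, and 32 after the length and GC adjustment, an alternative chosen after seeing the data for these lists. Small ratios changed sign, that of Arpc2 to −0.04 and that of Lcp1 to 0.09 with the adjustment, and that of Cfl1 to 0.14 with TMM. Was and Vim kept their direction and stayed past 2-fold under every scaling run. With the union of exons or the median coding transcript as length, Tmsb4x and Actb stayed highest and Vim and Was lowest, while the places between them changed.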

Other observations

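Other filament systems were listed for context. All 8 tubulin genes were within 2-fold between the libraries, with Tuba1a at 204 and 268 CPM, the highest of them per kb. In the bin of their median length of 1780.5 bases, only 10.5% of all genes were more than 2-fold lower and 8.02% higher. Among the other intermediate filament genes, Gfap of astrocytes had 27 and 32 counts, and the epithelial keratin genes Krt8 and Krt18, named after their values were seen, had 2 and 45 counts and 11 and 92 counts. Lmnb2, a gene of the nuclear lamina, had 17.0 and 8.17 CPM (log2 ratio −1.06, adjusted 0.09). In 6 border macrophage genes, which mark cells the gate could also hold, the summed level was 662 and 279 CPM in libraries 1 and 2, and in 8 lymphocyte genes it was 2.22 and 17.6 CPM.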
